A study of Mus musculus with 6 samples.

Results

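The probes described here cover stretches of the mouse genome between known genes that were put on the array as candidate long noncoding RNAs. They were chosen by name: a probe belongs to the set if its name on the array is a genomic interval followed by F for the forward or R for the reverse strand. There were 4449 such probes among 56605, or 7.86%. They stand for 4061 intervals counted by strand, on 20 chromosomes of the mm9 build, with a median length of 7207 bases. The RNA was that of the lining epithelium of the bile duct, the common duct that carries bile from the liver to the gut, in C57BL/6 mice. The 3 DOX+ samples were from iFGF10 mice whose drinking water held 0.02% doxycycline over 5 days, an antibiotic used to switch on genes under a tetracycline-controlled promoter. The 3 DOX- samples were from mice given water alone over the same time. FGF10 is a secreted growth factor that acts on epithelia, and no label names the promoter or cell type that drove the construct, or which Fgf10 sequence it held, so the array's Fgf10 probes are no check of the labels. The source names call the controls untreated iFGF10 mice while their descriptions carry names that begin with WT, so the labels do not settle whether they carried the construct, nor whether each sample was 1 mouse. No mice without the construct were given doxycycline here, so effects of the drug and of the induced gene cannot be told apart.

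Long noncoding RNAs are transcripts that are capped and often spliced like messenger RNAs but carry no known protein. Some act on chromatin at the place where they are made, some act elsewhere in the cell, some are hosts of microRNAs or small nucleolar RNAs, and for most no role is known. They are as a rule present at lower levels than messenger RNAs and in fewer tissues, and many lie beside genes of development. Because the strand of such a transcript is often not known when a probe is designed, an interval may have a probe for each strand.

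The sequences below carry the findings that follow. The name of each interval gives its chromosome, start, end and strand. Probe chr3:65729664-65731697_R, the single interval probe past the test's threshold, lies at chr3:65729719-65729778 on the reverse strand of mm9.

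chr3:65729664-65731697_R: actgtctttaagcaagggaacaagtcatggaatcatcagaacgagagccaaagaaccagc

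The next pair belongs to the interval chr6:134879009-134880130_F, downstream of Cdkn1b. The first probe was found whole in the RefSeq (GRCm38.p6) promoter window of Lockd, a long noncoding RNA downstream of Cdkn1b, and ends 24 bases before its annotated start. The second begins 127 bases after the start of the first probe, at base 45 of the transcript.

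before the Lockd start: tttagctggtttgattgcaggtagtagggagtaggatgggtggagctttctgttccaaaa

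after the Lockd start: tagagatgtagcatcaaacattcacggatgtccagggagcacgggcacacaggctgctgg

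The pair for chr2:132079092-132087069 reads the same 41 bases from opposite strands, and capitals mark these bases.

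chr2:132079092-132087069_F: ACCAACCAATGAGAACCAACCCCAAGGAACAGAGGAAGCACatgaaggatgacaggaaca

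chr2:132079092-132087069_R: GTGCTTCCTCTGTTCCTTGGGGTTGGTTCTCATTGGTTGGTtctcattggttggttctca

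A pair of interval probes on chromosome 17 shares 56 bases, in capitals, with a probe of the coding gene Tmem181a, which has them on the other strand.

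chr17:6265275-6362150_R: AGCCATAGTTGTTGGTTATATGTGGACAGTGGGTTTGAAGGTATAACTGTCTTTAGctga

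chr17:6455677-6476228_F: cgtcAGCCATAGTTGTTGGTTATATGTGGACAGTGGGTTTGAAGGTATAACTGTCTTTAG

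Tmem181a: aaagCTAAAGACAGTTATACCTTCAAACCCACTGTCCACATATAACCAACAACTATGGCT

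A probe of chr15:85412264-85549139_F holds the mature let-7c microRNA whole, in capitals, and the mature form is given with its seed, the bases 2 to 8 that pair with targets, in capitals.

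chr15:85412264-85549139_F: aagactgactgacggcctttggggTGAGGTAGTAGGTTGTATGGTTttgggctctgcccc

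mmu-let-7c-5p: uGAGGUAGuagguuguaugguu

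Over all spots, 55.93% to 61.9% were well above background (the scanner software's own flag) on each array, the 75th percentile of processed intensity was 666.16 to 910.07, and no spot was saturated. All 6 arrays lay on 1 slide and in 1 scan, with the DOX+ arrays and DOX- replicate 1 in the first row and DOX- replicates 2 and 3 in the second. The 8 cholangiocyte markers (the cells that line bile ducts) were well above background on all arrays, 7 of them with the lower mean in DOX+ and a median log2 difference of -0.22. Markers of smooth muscle and of fibroblasts (4 of 4 each) were also seen on all arrays. Mast cell markers had a median difference of 2.18 (5 of 5 higher in DOX+) and endothelial markers one of 0.54 (4 of 4 higher). Pancreatic acinar markers had one of 0.63 (4 of 4 higher), with DOX- array means spread from -0.35 to 4.12. None of these passed the threshold. In such bulk RNA fewer cells of a type and less RNA per cell cannot be told apart. No label says that the samples came from separate mice, so p-values cover only the spread between the samples at hand.

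About 2 in 5 interval probes gave a signal, fewer than probes of coding genes. For DOX+ replicates 1 to 3 the flag was set for 43.25%, 46.01% and 44.17% of interval probes. For DOX- it was set for 43.07%, 42.3% and 38.68%. DOX- replicate 3 was the lowest, and the DOX+ arrays lay above the DOX- arrays, DOX+ replicate 1 by little. Probes with a RefSeq messenger RNA (NM_) accession, called coding probes here, lay between 67.51% and 72.79%, and probes with a noncoding RefSeq (NR_) accession between 32.46% and 37.46%. DOX- replicate 3 was also the lowest in both of these.

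**Figure D1:**
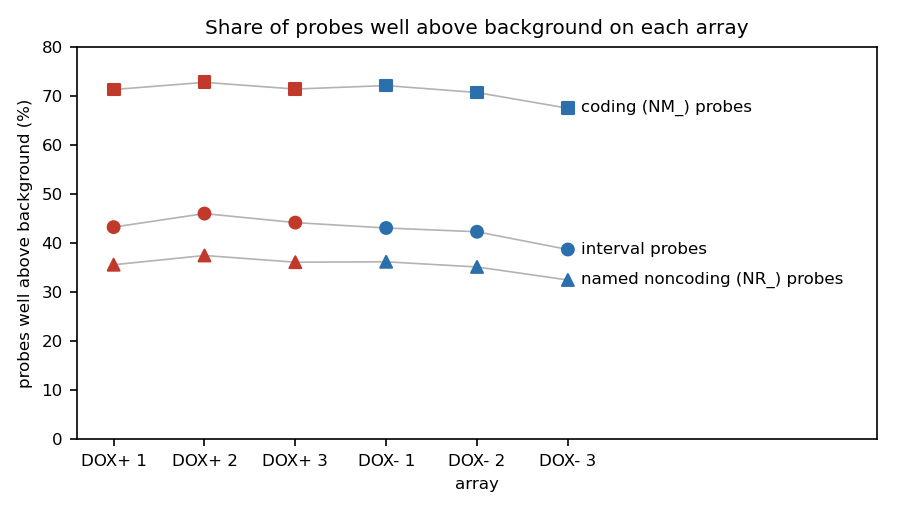
The percentage of probes well above background (vertical axis) on each of the 6 arrays, for interval probes (circles), coding probes (squares) and named noncoding probes (triangles), with DOX+ in red and DOX- in blue. Interval probes sit between 38.68% and 46.01% on every array, below the coding probes (67.51% to 72.79%) and above the named noncoding probes (32.46% to 37.46%).

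Across arrays, 2089 interval probes (47.0%) were well above background on none of the 6 and 1569 (35.27%) on all 6. A probe was tested if the flag was set on each of the 3 arrays in one group or both, which left 1806 of 4449 interval probes (40.6%). A further 554 gave a signal on some arrays without meeting this rule. Both strands were represented, with 862 forward (38.7%) and 944 reverse probes (42.5%) tested. Detection varied with base composition: 32.5% of interval probes with under 40% G and C were tested, 36.7% of those with 40 to 50%, 51.4% of those with 50 to 60% and 72.9% of those above. For coding probes the same 4 shares ran from 68.7% to 75%, so the interval probes came close to the coding probes only among those richest in G and C.

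The polyadenylation signal AATAAA, the hexamer found just before the end of many messenger RNAs, was searched in the probe's own sense and on the opposite strand. Among probes with 40 to 50% G and C, 3.0% of interval probes held it in sense and 2.1% in antisense, against 9.0% and 2.2% of coding probes. Of the 70 interval probes in this class with the hexamer in sense, 58.6% were tested, and of those without it 36%. With the hexamer in antisense the share was 44.0% of 50 probes. Below 40% G and C the shares tested were 40.6% with the hexamer in sense and 31.6% without it, and 33.8% with it in antisense. A match describes letters in the probe and not a site in use.

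Most intervals held no probe of a named transcript. Of the 4061 intervals by strand, 543 held a named probe of the array on the same strand, and 75 of these held a coding probe there. Tested intervals were 49 of these 75 (65.3%), 233 of the 468 with another named probe (49.8%) and 1405 of the 3518 with none (39.9%). The intervals without any named probe on their strand were the most numerous and had the lowest share tested. Searched against RefSeq (GRCm38.p6) promoter windows, which run across each gene's start, 51 interval probes lay whole in a window. Of these matches 27 were on the gene's own strand (9 tested) and 26 on the opposite strand (14 tested).

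Between DOX+ and DOX-, interval probes as a set differed little. The median log2 difference, DOX+ minus DOX-, was 0.08 over the 1806 tested probes, with quartiles of -0.11 and 0.25, against 0.01 over all 31720 tested probes and -0.02 over coding probes. Of the interval probes 1114 (61.7%) had the higher mean in DOX+, and of all probes 50.9%. That split depends on the scaling: with quantile normalisation 53.2% of interval probes were higher, and with scaling to the array median 47.4%, where the median over all probes moved to -0.09. The median log2 value of the interval probes, relative to each array's 75th percentile, was -2.56, -2.63 and -2.61 in DOX+ and -2.71, -2.67 and -2.68 in DOX-. The DOX+ arrays thus lay slightly above the DOX- arrays with this scaling.

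**Figure D2:**
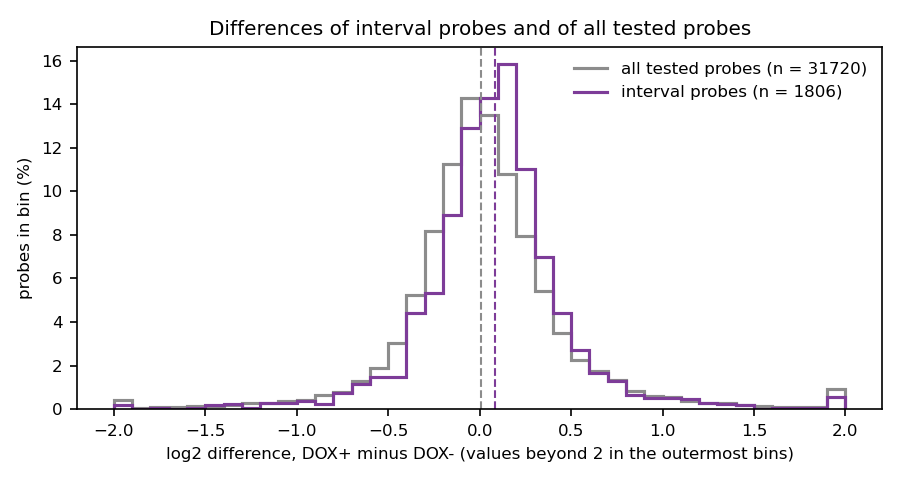
Log2 difference, DOX+ minus DOX- (horizontal axis), against the percentage of probes in each bin, for the 1806 tested interval probes (purple) and all 31720 tested probes (grey). Dashed lines mark the medians of 0.08 and 0.01, both distributions are centred near 0, and the outermost bins hold all values beyond 2.

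Passing the threshold (limma adjusted p under 0.05 over all probes tested) was 1 interval probe, 0.0554% of those tested, and 18 of all probes, or 0.0567%. At an unadjusted limma p under 0.05, 145 interval probes were higher (8.03%) and 79 lower (4.37%), beside 7.37% and 5.63% of all probes. This excess of higher interval probes was not kept under other scalings, with 103 higher and 104 lower after quantile normalisation, 103 and 103 with the authors' values, and 80 and 94 after median scaling. The groups did not overlap for 218 interval probes in the higher direction (12.1%) and 110 in the lower (6.09%), beside 10.7% and 9.44% of all probes. At 2-fold or more, 42 were higher (2.33%) and 23 lower (1.27%), beside 2.98% and 2.07%. By these counts and with the main scaling, the interval probes had smaller shares than the whole array in the lower direction. In the higher direction the shares lay closer together. The lower count at an unadjusted limma p under 0.05 was larger under the other scalings, from 94 to 104, so this too depends on the scaling.

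The probe past the threshold, chr3:65729664-65731697_R, fell in DOX+. Its log2 values were -3.73, -3.97 and -3.95 in DOX+ and -2.29, -2.09 and -2.08 in DOX-, so all 3 DOX+ arrays lay well below all DOX- arrays. The difference was -1.73 (SE 0.14, limma adjusted p = 0.0267, n = 3 per group). It did not pass with the slide row as a block (-1.59, limma adjusted p = 0.281), with the replicate block (0.183), with normexp background correction (0.0784), or without any one of 5 of the 6 arrays (0.0533 to 0.213). It did not pass either with no filter on dim probes (0.0898). Its nearest coding gene on the array, Ccnl1, a cyclin that takes part in pre-mRNA splicing, lay 20.6 kb away on the same strand with a difference of -0.03 (SE 0.13). Of the 5 Ccnl1 probes, 1 had groups that did not overlap, at -0.37 (SE 0.14, limma adjusted p = 0.343).

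Of the next probes in rank among those lower in DOX+ on all arrays, none passed. Probe chr4:88583425-88584070_R had log2 values of -4.24, -4.01 and -3.97 in DOX+ and -2.45, -2.87 and -2.18 in DOX-, a difference of -1.57 (SE 0.2, limma adjusted p = 0.0917). All DOX- arrays lay at least 1 log2 unit above the DOX+ arrays. Its nearest coding gene, Ifne, the interferon epsilon gene, was 57.8 kb away and not tested.

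Probe chr6:3333825-3349525_R lay 26.8 kb from Samd9l, an interferon-inducible gene, on the same strand. Its values were -1.78, -2.04 and -2.07 in DOX+ and -1.04, -0.98 and -0.72 in DOX-, a difference of -1.05 (SE 0.15, limma adjusted p = 0.113). Samd9l had values of 2.19, 2.04 and 2.25 in DOX+ and 2.66, 3.06 and 3.22 in DOX-, a difference of -0.82 (SE 0.18, limma adjusted p = 0.196). Groups did not overlap for either, and both were lower in DOX+.

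The other 5 of this group had differences from -1.01 to -0.67 with limma adjusted p between 0.161 and 0.221, and their groups did not overlap. Probe chr4:33375464-33377138_R was at -1.01 (SE 0.2) and its neighbour Pnrc1, a nuclear receptor coactivator 43.2 kb away, at 0.15. Probe chr2:132079092-132087069_F was at -0.76 (SE 0.15), 11.1 kb from Pcna, the sliding clamp of DNA replication, whose own difference was -0.43 (SE 0.27). Probe chr5:139230332-139230823_R was at -0.67 (SE 0.16), 12.3 kb from Fam20c, a kinase of secreted proteins on the opposite strand, which was at -0.89 (SE 0.24) with groups that did not overlap either. The remaining pair, chr10:44707451-44707693_R and chr1:183951156-183986156_F, was at -0.73 and -0.83, more than 100 kb from the nearest coding probe.

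Among probes higher in DOX+ on all arrays none passed the threshold, and the 8 first in rank had limma adjusted p between 0.149 and 0.19. Probe chr5:137411861-137413010_F had values of -3.62, -3.73 and -3.48 in DOX+ and -4.3, -4.56 and -4.5 in DOX-, a difference of 0.84 (SE 0.14). A probe of the overlapping interval chr5:137395007-137412976_F on the same strand, with part of the same bases, had -0.89, -0.91 and -0.93 in DOX+ and -1.39, -1.9 and -1.71 in DOX-, a difference of 0.76 (SE 0.16). In both, every DOX+ array lay above every DOX- array. A probe of another overlapping forward interval, chr5:137392195-137426421_F, was at background on all arrays. The nearest coding gene, Ift22, a part of the transport machinery of cilia, was 24.2 kb away at -0.25 (SE 0.18).

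Probe chr10:95772764-95825001_F had the largest difference of the 8, with values of -3.17, -2.38 and -3.2 in DOX+ and -4.24, -4.43 and -4.49 in DOX-, a difference of 1.47 (SE 0.25). Its nearest coding probe was that of Btg1, an antiproliferation gene 257.4 kb away, at -0.26. Probe chr5:122047900-122065325_R, which has no position on the array's map, was at 1.07 (SE 0.2), and a probe of the overlapping interval chr5:122048289-122068947_R at 0.43 (SE 0.18), with groups apart for both. The groups also did not overlap for chr2:145492995-145523670_R and chr6:47707763-47714574_F, which were at 0.84 (SE 0.17) and 0.79 (SE 0.16). Within the span of the latter, probes of overlapping forward intervals seen on all arrays were at -0.03 and 0.17, and one seen in DOX+ only was at least 1.36-fold higher there. Probe chr14:28218945-28241903_R was at 0.63 (SE 0.13), while a probe of the overlapping reverse interval chr14:28231577-28242027_R, seen on 1 of the DOX+ arrays, was at -0.91 (SE 0.33), so probes of overlapping intervals on one strand differed in direction there.

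**Figure D3:**
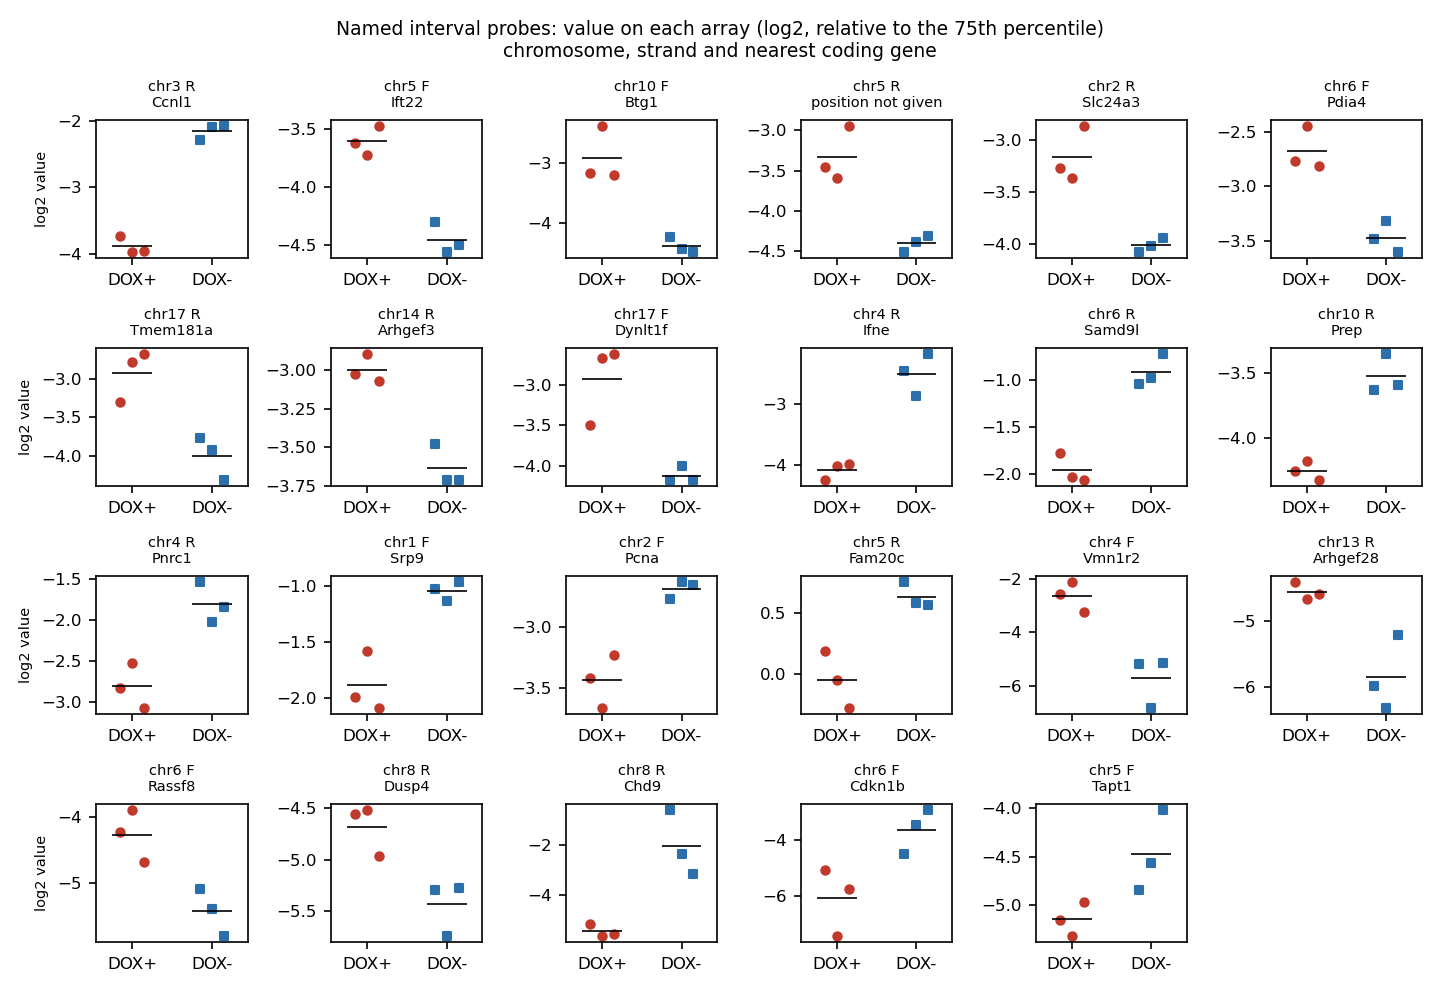
Log2 value relative to the array's 75th percentile (vertical axes, each with its own scale) for each named interval probe, with DOX+ arrays as red circles, DOX- arrays as blue squares and lines at the group means. Panel titles give chromosome, strand and nearest coding gene. The groups do not overlap for any probe shown, which the choice of the probes required for most of them.

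The pair on chromosome 17 shares bases with Tmem181a, a transmembrane protein gene, and was higher in DOX+ together with some probes of that gene. Apart from probes with shared bases, the nearest coding probe of chr17:6265275-6362150_R was one of Tmem181a, 7.5 kb away. That of chr17:6455677-6476228_F was one of Dynlt1f, 149.2 kb away. Probe chr17:6265275-6362150_R had -3.3, -2.78 and -2.68 in DOX+ and -3.77, -3.93 and -4.32 in DOX-, a difference of 1.09 (SE 0.23). Probe chr17:6455677-6476228_F had -3.5, -2.67 and -2.62 in DOX+ and -4.18, -4.01 and -4.18 in DOX-, a difference of 1.19 (SE 0.26). A probe of the overlapping forward interval chr17:6426800-6528950_F, seen on all arrays, was lower in DOX+. It was at -0.38 (SE 0.19, limma adjusted p = 0.448), with groups that did not overlap. The Tmem181a probe with the 56 bases in common was higher by 1.44 (SE 0.26, limma adjusted p = 0.157), and its groups did not overlap. Interval and gene probes target opposite strands of the same bases, so which copy or strand gave the signal cannot be read from these values. A probe of the unnamed transcript DV552657 nearby was at 1.17 (SE 0.32), while the other 4 Tmem181a probes ranged from 0.05 to 0.95.

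Some interval probes were well above background on all arrays of one group and on none of the other. This held for 21 probes seen in DOX+ only (1.16% of those tested, beside 0.747% of all probes) and for 3 seen in DOX- only (0.166%, beside 0.113%). For these a fold is a lower bound, taken against the lowest signal well above background on each array or the probe's own signal, whichever was higher.

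Probe chr4:3169583-3180017_F had values of -2.56, -2.13 and -3.26 in DOX+ and -5.17, -6.83 and -5.15 in DOX-, where each array had it at background, and was at least 4.79-fold higher in DOX+ (limma adjusted p = 0.15). A probe of the predicted noncoding transcript Gm11783, inside the interval on the same strand, had -1.86, -1.97 and -3.89 in DOX+ and -4.68, -4.85 and -4.3 in DOX-, higher by 2.03 (SE 0.54, limma adjusted p = 0.249). Both separated the groups, and DOX+ replicate 3 was the lowest DOX+ array in both. A transcript named ENSMUST00000119549 on the array, next along the strand, had probes at 1.21 (SE 0.43, seen on 1 of the DOX- arrays) and 0.14 (SE 0.16), and the reverse interval on the other side, chr4:3149375-3169700_R, was at 0.07 (SE 0.15). The other 3 named, chr13:98513868-98517366_R, chr6:145727805-145728171_F and chr8:35650475-35664200_R, were at least 1.27-fold, 1.56-fold and 1.17-fold higher, with limma adjusted p from 0.2 to 0.245.

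Probe chr8:93337794-93348869_R was seen in DOX- only, with values of -5.15, -5.63 and -5.53 in DOX+ and -0.64, -2.37 and -3.18 in DOX-, and was at least 8.2-fold lower in DOX+ (limma adjusted p = 0.157). The DOX- arrays themselves spread over 2 log2 units and more. The forward probe of this interval was at background on all 6 arrays. The coding gene Chd9, a chromatin remodeller on the forward strand, had 4 probes with differences from -0.8 to -0.16.

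At Lockd, the probe that lies past the annotated start was seen in DOX- only. Probe chr6:134879009-134880130_F had values of -5.07, -7.46 and -5.75 in DOX+ and -4.51, -3.43 and -2.91 in DOX-, and was at least 2.8-fold lower in DOX+ (limma adjusted p = 0.254). The probe before the start, which begins 127 bases before this one begins, was at background on all 6 arrays, with values between -7.42 and -6.79. The array's own Lockd probe, 22.3 kb downstream, had -1.83, -3.45 and -3.01 in DOX+ and -1.95, -0.81 and -0.41 in DOX-, a difference of -1.71 (SE 0.54, limma adjusted p = 0.301), with DOX- replicate 1 among the DOX+ values. Cdkn1b, the gene of the cell cycle inhibitor p27, 3.7 kb upstream on the same strand, had a difference of 0.10 (SE 0.15). The last of the probes seen in DOX- only, chr5:44625083-44634763_F, was at least 1.51-fold lower (limma adjusted p = 0.324).

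Between Dlk1 and Dio3 on chromosome 12 lies an imprinted stretch whose maternal copy gives the long noncoding RNAs Meg3, Rian and Mirg, hosts of many small nucleolar RNAs and microRNAs. This stretch was singled out after its values were seen, as were Lockd, Gm11783 and the Tmem181a copies. Of 22 interval probes there 10 were tested, and none passed the threshold (smallest limma adjusted p = 0.239), while 5 had an unadjusted limma p under 0.05. Of the 10, 6 were seen on all DOX+ arrays but on only 1 or 2 DOX- arrays, so they entered the test through DOX+ and their direction was set by the filter. The 4 seen on all 6 arrays had differences of 0.91, 1.31, 2.17 and 0.14. Of the 5 with an unadjusted limma p under 0.05, only the one at 2.17 was seen on all 6 arrays. The direction of the rest was set by the filter, and the stretch was picked after its values were seen. The count of 5 thus cannot be weighed against the 13% of all probes under 0.05.

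Of the 6, chr12:110870903-110891628_R had -1.91, -2.6 and -3.45 in DOX+ and -3.93, -4.52 and -5.47 in DOX-, a difference of 1.98 (SE 0.51) with 2 of the DOX- arrays above background, and it alone of the 10 separated the groups. Of the 4, chr12:110894095-110899517_F had 0.33, -0.57 and -1.94 in DOX+ and -1.89, -3.02 and -3.78 in DOX-, a difference of 2.17 (SE 0.68), with DOX+ replicate 3 below DOX- replicate 1. A probe of chr12:110842154-110883594_F had 0.34, -0.31 and -1.58 in DOX+ and -0.94, -2.13 and -2.39 in DOX-, a difference of 1.31 (SE 0.58), and chr12:110738120-110769295_R was at 0.91 (SE 0.38), with overlap in both. At the far end, chr12:111322030-111323387_F, beyond Mirg, was at 0.14 (SE 0.18).

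DOX+ replicate 1 was the highest array for 9 of the 10 and DOX- replicate 3 the lowest for 8, and DOX+ replicate 3 lay below DOX- replicate 1 for 7. The 5 Meg3 probes had differences from 2.12 to 2.65, and one of them had 5.78, 5.18 and 3.67 in DOX+ and 3.48, 2.76 and 2.02 in DOX-, with no overlap between the groups. When slide row was a block the 4 interval probes seen on all arrays were at 0.83, 0.43, 1.16 and 0.19. Without DOX+ replicate 1 they were at 0.55, 0.88, 1.64 and -0.02. Means of cell type markers also varied between arrays. For the 4 endothelial markers, all tested, they were -0.35, -0.39 and -0.95 in DOX+ and -0.88, -1.17 and -1.04 in DOX-. For the 4 smooth muscle markers they were 3.69, 3.13 and 2.49, and 4.67, 2.11 and 2.13. For the 4 fibroblast markers they were 3.93, 3.65 and 2.99, and 4.24, 3.6 and 3.64. Each of these sets fell at every step from DOX+ replicate 1 to 3. Means of the other sets did not, such as hepatocyte (1.84, 3.89 and 3.25), cholangiocyte (2.71, 3.01 and 2.54) and macrophage markers (2.26, 1.75 and 1.99). The part of any cell type in the result was not tested.

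**Figure D4:**
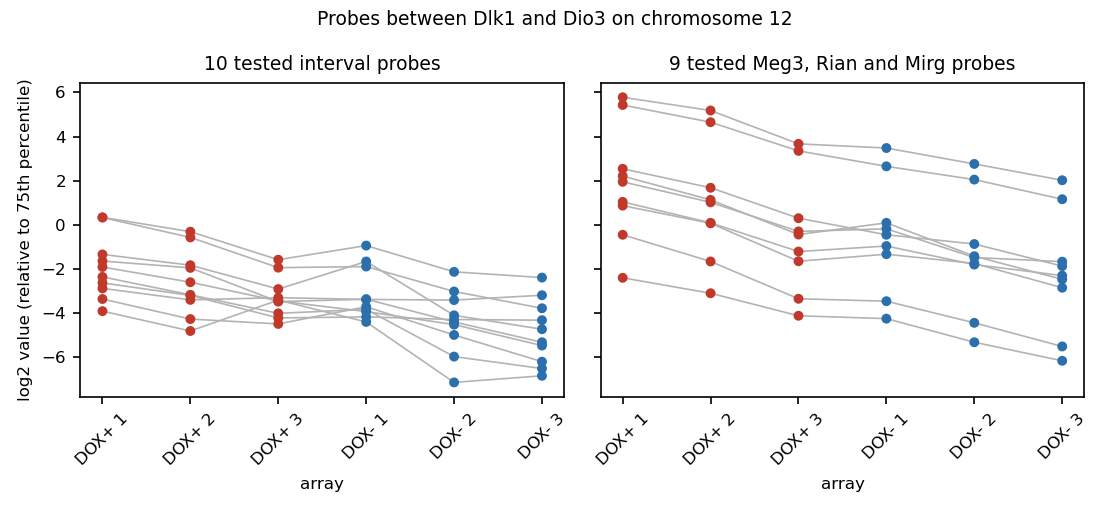
Log2 value relative to the array's 75th percentile (vertical axis) on each array (horizontal axis) for the 10 tested interval probes between Dlk1 and Dio3 (left) and 9 probes of Meg3, Rian and Mirg (right), with DOX+ in red, DOX- in blue and a line per probe. DOX+ replicate 1 is the highest array for 9 of the 10 interval probes and DOX- replicate 3 the lowest for 8, and DOX+ replicate 3 and DOX- replicate 1 lie close together.

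Where an interval had probes for both strands, the strands often differed in whether they met the rule for testing. A strand that did not meet it may still have given a signal on some arrays. Of 832 such intervals, both strands were tested in 205 (24.6%), the forward strand alone in 157, the reverse strand alone in 227 and neither in 243. Thus 46.2% gave a tested signal on one strand only. In the 205 with both, the differences on the strands had the same sign in 116 (56.6%), with a Pearson r of 0.37 and a Spearman rho of 0.22 across intervals, which share the same 6 arrays (several probes of a strand were averaged). In 27 of them the probes for both strands shared at least 30 bases, and without these the r was 0.41 over 178 intervals. The intervals farthest from 0 on both strands were chr12:110870903-110891628 (2.087 forward, 1.983 reverse) and chr8:26343277-26352902 (1.832 and 1.152). Both probes of the former and the forward probe of the latter entered the test only through DOX+, which set their direction. The r without these intervals was not computed.

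**Figure D5:**
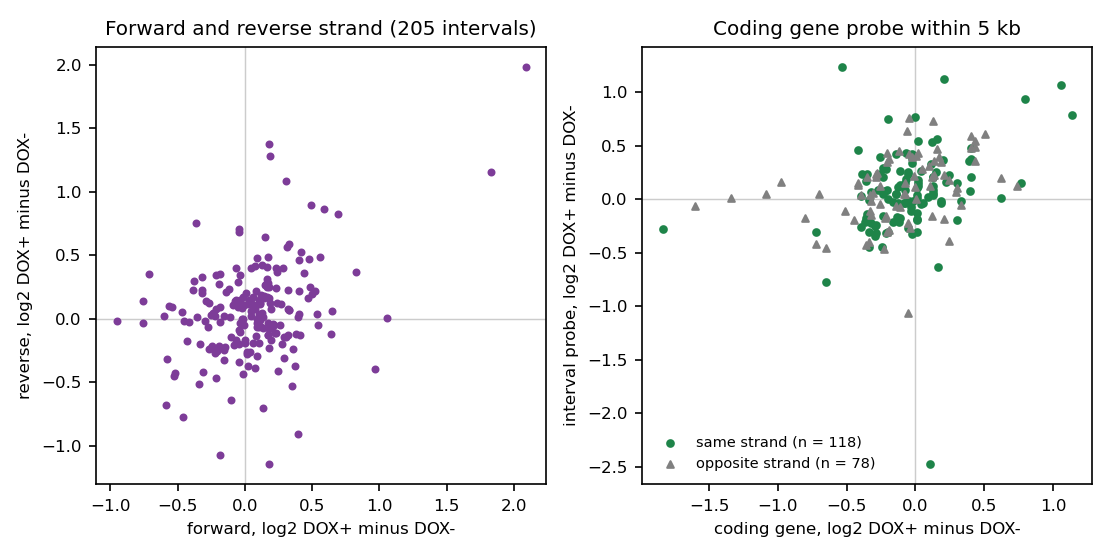
Left, the log2 difference DOX+ minus DOX- of the reverse probe (vertical) against that of the forward probe (horizontal) for the 205 intervals with both strands tested (mean of the probes where a strand had several). Right, the same difference of an interval probe (vertical) against that of its nearest coding gene (horizontal) where their probes lie within 5 kb, on the same strand (green circles, 118) or the opposite strand (grey triangles, 78). Points spread around 0 in both plots, with r of 0.37 on the left, and 0.31 and 0.36 on the right.

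In the interval beside Pcna, whose probes cover 41 bases in common, the strands gave different values. Probe chr2:132079092-132087069_F had -3.42, -3.67 and -3.23 in DOX+ and -2.77, -2.63 and -2.65 in DOX-, with no overlap. The reverse probe had -3.59, -3.72 and -3.58 in DOX+ and -3.79, -3.82 and -3.71 in DOX-, a difference of 0.14 (SE 0.12, limma adjusted p = 0.653), with overlap. The difference between the strands was not tested. In chr8:26343277-26352902, 61.5 kb from Tacc1, a spindle protein gene, both strands were higher in DOX+. There the forward probe was at 1.83 (SE 0.47, seen on 1 of the DOX- arrays) and the reverse probe at 1.15 (SE 0.26), and the groups did not overlap for either. In chr6:50339188-50409363 the forward probe was at 0.18 (SE 0.14) and the reverse probe at -1.15 (SE 0.27).

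The interval with let-7c, chr15:85412264-85549139, had Ppara, a lipid metabolism regulator (-0.53, SE 0.35), and Wnt7b, a secreted signal (-0.76, SE 0.16), as its nearest coding genes. The let-7 family of microRNAs holds back growth genes, and the probe that contains it reads any transcript with those bases, not the mature form as such. Its values were -2.83, -3.03 and -2.7 in DOX+ and -3.43, -4.01 and -4.2 in DOX-, a difference of 1.03 (SE 0.23, limma adjusted p = 0.196), with every DOX+ array above every DOX- array. Another probe of the same strand was at 0.02 (SE 0.21) and the reverse probe at 0.22 (SE 0.14). Of 1679 mature mouse microRNAs searched, the one other found was miR-363-3p, in a probe of chrX:50087925-50101700_R that was not tested.

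Several probes of one strand of an interval were available in 316 cases, and in 103 at least 2 were tested. Their differences all had one sign in 70 of the 103 (68.0%), and the median distance between the lowest and highest was 0.24, beside a median SE of a single probe's difference of 0.194. For chr15:102026122-102033725_R, 4.7 kb from the zinc finger gene Zfp740 (0.43, SE 0.31), the first probe had -2.27, -2.28 and -2.24 in DOX+ and -2.78, -2.9 and -2.75 in DOX-, a difference of 0.55 (SE 0.12). The second probe was at 0.36 (SE 0.12), and that of the interval chr15:102026122-102033597_R, which shares its start, at 0.61 (SE 0.14). All of them separated the groups, with limma adjusted p between 0.196 and 0.32. For chr7:88131123-88136898_R the pair was at 0.29 and 0.64, again with groups apart.

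Sequence shared between probes limits how many of the intervals are separate measurements. Of the interval probes 419 shared 30 bases in a row with another interval probe, on either strand, in 205 groups. A further comparison with named probes found 46 interval probes with such a stretch, 20 of them shared with a coding probe. In the 32 pairs where both were tested, the differences had the same sign in 22 and an r of 0.84. That r rests on the 2 Tmem181a pairs above, which set 2 interval probes against 1 gene probe: without them it was 0.38 over 30 pairs, 20 with the same sign. The ribosomal protein gene Rps2 was at -0.13 and the interval probe with its bases at -0.11.

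Coding genes near the intervals were compared next. The median distance from an interval probe to the nearest coding probe was 34.8 kb, over 4358 probes with a position. Within 5 kb of a coding probe on the same strand 57.7% of 208 interval probes were tested, and on the opposite strand 36.3% of 234. From 20 to 100 kb these shares were 42.8% and 37.9%. Of 1244 tested pairs within 100 kb, involving 732 genes, 662 (53.2%) had the same sign, with an r of 0.12 and a rho of 0.15. Within 5 kb the share was 59.3% on the same strand (r 0.31, 118 pairs) and 60.3% on the opposite strand (r 0.36, 78 pairs). Beyond 5 kb r lay between -0.06 and 0.21. These pairs share arrays, and interval probes near one gene share that gene.

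Transcription factor genes of developmental families (such as Fox, Klf and Hes) were the nearest coding gene of 135 interval probes (3.1%) and made up 1.29% of coding genes on the array, and neighbouring intervals share such genes. Of these probes 49 were tested, 37 with the higher (73.5%) and 12 with the lower mean in DOX+, and 44 were seen on all arrays. Of all tested interval probes 61.7% were higher with this scaling, a share that changed with the scaling as given above. Of the 37, 4 entered the test only through DOX+, which set their direction. None passed the threshold. The groups did not overlap for 9 (18.4%), beside 18.2% of interval probes and 20.1% of all probes, and 5 had an unadjusted limma p under 0.05 (10.2%), beside 12.4% and 13%. Probe chr4:55465247-55494547_R, 50.1 kb from Klf4, an epithelial differentiation factor, had -2.11, -2.47 and -2.64 in DOX+ and -3.08, -3.07 and -2.79 in DOX-, a difference of 0.57 (SE 0.18), while Klf4 was at -0.18 (SE 0.32). The groups did not overlap for the interval. Probe chr16:29942664-29948289_R, 121.3 kb from the Notch target Hes1, was at -0.5 (SE 0.21) and Hes1 at -0.09 (SE 0.16), while another probe of that interval was at 0.08 (SE 0.15).

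Genes that respond to FGF signalling were nearest to 39 interval probes (0.89%, against 0.1% of coding genes). These probes had only 11 genes as their nearest, so a share of probes is set beside a share of genes. Of the 39 probes 11 were tested. None passed the threshold, and 3 had an unadjusted limma p under 0.05 (27.3%, beside 13% of all probes). None of these 3 was seen on all arrays. Of the 11, 7 were seen on all arrays (5 higher and 2 lower), 3 entered the test only through DOX+ and 1 only through DOX-, which set their direction. Probe chr10:98730529-98741718_F lay 0.6 kb from the probe of Dusp6, a phosphatase induced by ERK that switches ERK off, on the same strand. Its values were -4.74, -4.72 and -4.28 in DOX+ and -5.24, -5.02 and -5.73 in DOX-, seen in DOX+ only and at least 1.26-fold higher there (limma adjusted p = 0.298). Dusp6 itself was at -0.2 (SE 0.21). Probe chr8:35650475-35664200_R, 219.3 kb from the related Dusp4 (-0.52, SE 0.37), was the one given above as at least 1.17-fold higher. Probe chr19:53535104-53536627_F, 79.1 kb from Dusp5, was at -1.48 (SE 0.5), seen on 1 of the DOX+ arrays, with groups that overlapped.

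Intervals that contain a probe of a well known noncoding RNA on the same strand allow a check of both kinds of probe. There were 22 such intervals with 27 probes, of which 19 were tested, and no pair shared 30 bases. Gas5, a host of small nucleolar RNAs, was at 0.00 (SE 0.12) and the probe of its interval chr1:162965309-162970704_F at 0.05 (SE 0.17). Tug1 was at 0.27 (SE 0.18) and the probe of chr11:3538125-3554450_R at 0.48 (SE 0.24). Firre, an X-linked RNA that organises chromatin, was at 0.88 (SE 0.19) and chrX:47893703-47996700_R at 0.29 (SE 0.28). Mirg was at 2.00 (SE 0.64) and chr12:110944403-110988678_F at 1.47 (SE 0.83). That interval probe was seen on 2 of the DOX- arrays and entered the test only through DOX+, which set its direction. Ftx was at -0.25 (SE 0.18) and its interval probes chrX:100756245-100819095_R and chrX:100745320-100819322_R at -0.04 (SE 0.14) and 0.12 (SE 0.15), the latter with the opposite sign. Probe chrX:100745320-100819322_R was likewise seen on 2 of the DOX- arrays and entered the test only through DOX+. Signs also differed for Snhg15 (-0.02, SE 0.12, and chr11:6421951-6429173_R at 0.15, SE 0.14) and for Snhg14 (0.07, SE 0.25, and chr7:66562376-66579519_R at -0.07, SE 0.32).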

How the data were processed

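Labelled RNA of 6 samples was hybridised to 1-colour Agilent arrays of 60-base probes. The deposited files hold the intensity of each spot, made with Feature Extraction (10.7.1.1 per the file headers, 9.5.1.1 per the submitters' processing notes), background-subtracted and detrended within each array, with flags of 0 or 1 for signal. The authors' own table of intensity values served as an alternative. Probe positions (mm9) are those of the files, and no genome was used.

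Each array's 75th percentile was subtracted on the log2 scale, outlier spots were left out and spots of a probe averaged. Probes flagged well above background on the 3 arrays of either group entered limma 3.58.1 (R 4.3.3, lmFit with group alone, then eBayes, two-sided, Benjamini-Hochberg over 31720 probes, threshold 0.05), checked on simulated data. A coding gene is a probe with an NM_ accession. Its value is that of its brightest tested probe, and distances run between probe centres.

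Named interval probes were those past the threshold, then the 8 higher and 8 lower with the smallest p among those seen on all arrays with groups apart, then up to 4 each way seen in 1 group only. Likewise by p, 5 intervals with both strands, 3 with several probes and 5 neighbours were named. The members and lists were chosen with earlier results of these data known. Mir205hg and the stretch between Dlk1 and Dio3 were added after values were seen. Alternatives covered scaling, background, filters, blocks, weights and each array left out.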

Additional observations from a re-analysis of the deposited data

How the results depend on the processing

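The 1 interval probe past the threshold became 0 with normexp background, with no filter on dim probes, and when slide row was a block, and 17 (10 higher, 7 lower) under array weights, where DOX- replicate 2 weighed 4.039. At an unadjusted limma p under 0.05 those 3 fits with 0 gave 85 higher and 72 lower, 231 and 152, and 92 and 48. Leaving out each array gave 0 to 1, with 0 without DOX+ replicate 2 and without each DOX- array, and a different probe without DOX+ replicate 3. Calls over all probes, 18 in the report, were 9 with normexp, 0 with no filter, 8 with the filter on all 6 arrays, 8 with 1 probe per name, 0 with slide row as a block, 462 with array weights and 0 to 64 over arrays left out (64 without DOX+ replicate 1, 30 and 46 without replicates 2 and 3, 0 without DOX- replicate 2). At an unadjusted limma p under 0.05 the count over all probes was 2435 without DOX- replicate 2, 5036 with no filter and 2211 with slide row as a block. With the replicate block 0 interval probes and 0 of all probes passed limma's threshold, and 124 and 71 interval probes were higher and lower at an unadjusted p under 0.05. Same-numbered arrays did not deviate together (correlations -0.052, -0.128 and 0), and 0 of 6 arrays correlated best with its own number. No pairing by number was thus seen, but with 3 arrays a group this check cannot exclude one.

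The median difference of interval probes, 0.08, was 0.02 with quantile normalisation, normexp and the authors' values, -0.02 with median scaling, -0.04 with no filter, 0.12 with slide row as a block, and 0.06 to 0.11 with an array left out. The mean share well above background, 42.9%, was 66.8% with the flag for a positive and significant signal. Both strands were tested in 20.3% of intervals with the filter on all 6 arrays. The same sign as the nearest coding gene was found in 58.4% within 10 kb, and in 51.8% to 55.6% with an array left out. Of single values, the other forward probe of the let-7c interval, 0.02, was -0.08 with median scaling and from -0.1 to 0.21 with an array left out. With slide row as a block chr12:110896603-110940553_F was -0.33 and chr12:110944403-110988678_F was -0.36, and chr12:111322030-111323387_F ranged from -0.02 to 0.24 with an array left out. With 3 arrays a group precision is limited, and most interval probes lay near background. The cause of each change was not tested.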

Other observations

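Of 56 named noncoding RNAs listed for comparison, 48 were on the array and 40 were tested, 25 higher and 13 lower, with a median difference of 0.07. Of these, 0 were past limma's threshold and 11 had an unadjusted limma p under 0.05 (27.5%, beside 13% of all probes). The 11 include Meg3, Rian and Mirg, which lie in the same stretch, and Lockd. The list was chosen with earlier results of these data known, so its share cannot be weighed against that of all probes. Snhg11, a host of small nucleolar RNAs, had -0.76, -0.38 and 2.83 in DOX+ and -3.74, -3.83 and -4.11 in DOX-, higher by 4.46 (SE 0.91, limma adjusted p = 0.179). Replicate 3 of DOX+ stood above the other two, and it was also the array with the highest mast cell markers (mean log2 1.96, against -1.44 and -0.21 on the other DOX+ arrays), whose part in this value was not tested. Snhg6 had 1.27, 1.43 and 1.35 in DOX+ and 2.09, 1.91 and 2.22 in DOX-, with -0.72 between the groups (SE 0.14, limma adjusted p = 0.168), and Snhg3 was at -0.36 (SE 0.13), with groups that did not overlap for either.

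On chromosome 17, 5 interval probes lie around the probe of the ribosomal RNA Rn18s, a repeated gene. All 5 were well above background on all 6 arrays, with differences from 0.1 to 0.3 and limma adjusted p between 0.527 and 0.893, while Rn18s was at -0.05 (SE 0.17). A probe of chr1:162965001-162966376_F, found whole in the promoter window of Gas5 on the gene's strand, was at 0.73 (SE 0.52) with groups that overlapped and DOX+ replicate 3 alone high, while an interval probe inside Gas5 was at 0.05 (SE 0.17). The ribosomal stretch and this probe were chosen after their values were seen.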
